A study of Homo sapiens and Mus musculus with 12 samples.

Results

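The receptors for IL-12, IL-18 and IL-21 were followed through 5 genes in each species, Il12rb1, Il12rb2, Il18r1, Il18rap and Il21r in mouse and IL12RB1, IL12RB2, IL18R1, IL18RAP and IL21R in human. They were taken by symbol from the count tables, which list 22021 mouse genes and 18304 human genes. All 5 passed the filter on low counts in each species, among 13189 mouse and 12727 human genes tested. RNA-seq had been performed in NK cells sorted from the spleens of C57BL/6J mice aged 8 to 12 weeks, and in NK92MI, a human NK line in established culture that supplies itself with IL-2. All mice carried the floxed Ehmt2 allele on both chromosomes (Ehmt2 flox/flox). The 3 wild-type (WT) libraries carried nothing further, and the 3 knockout (KO) libraries came from mice that also expressed iCre from Ncr1, which encodes the NK cell receptor NKp46, so that deletion is limited to cells that have switched on Ncr1. The NK92MI cells received BIX-01294, an inhibitor of the H3K9 methyltransferase EHMT2, or its solvent DMSO, with 3 libraries each, and they represent a single line. Assays on NK92MI cells in the same work used 0.25 uM BIX-01294 over 5 days, which the sources used here do not tie by name to these libraries. The sources do not say that the libraries of a group came from separate animals or cultures, so the p-values measure the spread between these libraries, which may be technical.

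The heterodimer of IL12RB1 and IL12RB2 binds IL-12, a cytokine of dendritic cells and macrophages, and signals through the kinases TYK2 and JAK2 to the transcription factor STAT4. The IL18R1 chain binds IL-18 and recruits IL18RAP, and the pair signals through the adaptor MYD88 and kinases of the IRAK family. IL21R pairs with the common gamma chain IL2RG and signals through JAK1 and JAK3, mainly to STAT3. NK cells carry all of these receptors, and IL-12 with IL-18 is the classical stimulus for their production of interferon gamma, which IL-21 can enhance.

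Total counts ranged from 25891680 to 37438868 in the mouse libraries, with the lowest in WT replicate 2, and from 16579469 to 17165446 in the NK92MI libraries. The targeted gene Ehmt2 fell from 281 ± 5.94 CPM in WT to 150 ± 18.1 CPM in KO cells (SD, n = 3; log2 fold change -0.91, adjusted p = 0.0162). CPM are counts per 1000000 counts after normalization by the trimmed mean of M-values (TMM), and adjusted p-values are from edgeR's quasi-likelihood test. One label field names the KO genotype Ezh2-KO whereas the titles name EHMT2, and Ezh2 was at 41.6 to 45.8 CPM in the WT and 35.0 to 39.5 CPM in the KO libraries (adjusted p = 0.116). The 12 general NK cell markers were all detected in mouse and all higher in KO, with 6 past the test, and their summed level was 6255 to 10065 CPM in WT against 11374 to 13113 CPM in KO libraries. Of all genes tested, 4.44% passed as higher and 7.43% as lower. In the same comparison most markers of macrophages and monocytes, B cells, neutrophils and dendritic cells were lower. All 15 macrophage and monocyte markers were lower in KO, with 9 past the test and sums of 3232 to 9913 CPM against 1635 to 2997 CPM. All 10 B cell markers tested were lower, with 0 past edgeR's test and 8 at an unadjusted p of 0.05, and sums of 571 to 1638 CPM against 98.4 to 535 CPM. All 9 neutrophil markers tested were lower, with 3 past the test, at 97.1 to 887 CPM against 14.8 to 102 CPM, and 10 of 11 dendritic cell markers were lower, with 3 past the test, at 10371 to 12282 CPM against 5232 to 8819 CPM. T cell markers went in both directions, 4 higher with 2 past the test and 6 lower with 0 past it. Of 9 markers listed for innate lymphoid cells other than NK cells, 6 were higher and 3 lower, with 0 past the test. No marker of these lists was at 0 in all libraries. WT replicate 2 was the WT library with the most NK marker RNA and the least of the B cell, macrophage, neutrophil and dendritic cell markers, and KO replicate 1 was the KO library with the least NK marker RNA and the most of those other markers.

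The first question was whether the receptor chains differ between NK cells with and without Ehmt2. In KO cells 4 of the 5 chains were higher in mean level than in WT cells by 1.58- to 1.75-fold, where 51.5% of all genes tested had a log2 fold change above 0, and Il21r was lower. Of the 5, 0 passed edgeR's test at an adjusted p of 0.05. At an unadjusted p of 0.05, 4 of the 5 passed, against 35.8% of all genes tested. Of all genes tested, 11.9% were called in this comparison, 4.44% as higher and 7.43% as lower. DESeq2 called 4 of the 5 as higher, where it called 8.33% of all genes higher, and limma-voom called 1, where it called 4.67% higher. With DESeq2, the study's tool, these 4 chains had log2 fold changes of 0.65 to 0.80 and adjusted p-values of 0.00363 to 0.00718. They thus passed the study's thresholds of an adjusted p of 0.01 and a log2 fold change of 0.5. The share of all genes passing these with DESeq2 is not given here. At the same thresholds edgeR called 0% of all mouse genes. In these bulk libraries, a change in RNA per NK cell and a change in the share of NK cells cannot be told apart.

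Il18r1, the chain that binds IL-18, was at 207, 356 and 226 CPM in WT replicates 1, 2 and 3, and at 398, 404 and 443 CPM in KO replicates 1, 2 and 3. All KO libraries lay above all WT libraries, and WT replicate 2 stood closer to the KO libraries than to the other WT libraries. The log2 fold change was 0.66 (SE 0.196, 95% interval 0.20 to 1.12, adjusted p = 0.0629).

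Il18rap, the accessory chain that completes the signalling receptor, had the highest level of the 5 per kb of exon. It was at 389, 649 and 426 CPM in WT replicates 1 to 3 and at 684, 773 and 894 CPM in KO replicates 1 to 3. The order of the libraries was that of Il18r1, again without overlap and with WT replicate 2 just under KO replicate 1. Its log2 fold change was 0.68 (SE 0.203, 95% interval 0.21 to 1.15, adjusted p = 0.0622).

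Il12rb1, the chain that the IL-12 and IL-23 receptors share, was at 36.2, 54.4 and 32.4 CPM in WT and at 55.9, 86.8 and 72.0 CPM in KO replicates 1 to 3. The groups did not overlap, although WT replicate 2 and KO replicate 1 were nearly level. Its log2 fold change was 0.81 (SE 0.225, 95% interval 0.28 to 1.33, adjusted p = 0.0554). Thus 3 of the 5 chains were higher without overlap between groups, where 19.1% of all genes tested were, and 38.5% did not overlap in either direction.

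Il12rb2, the signalling chain of the IL-12 receptor, was at 105, 152 and 102 CPM in WT and at 144, 209 and 231 CPM in KO replicates 1 to 3. Here the groups overlapped, since WT replicate 2 exceeded KO replicate 1. This gave a log2 fold change of 0.70 (SE 0.212, 95% interval 0.21 to 1.20, adjusted p = 0.0643).

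Il21r, the ligand-binding chain of the IL-21 receptor, was at 116, 76.1 and 118 CPM in WT and at 92.8, 75.5 and 61.9 CPM in KO replicates 1 to 3. WT replicate 2 lay among the KO libraries, so the groups overlapped. Its log2 fold change of -0.43 did not pass the test (SE 0.201, 95% interval -0.90 to 0.04, adjusted p = 0.165).

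**Figure D1:**
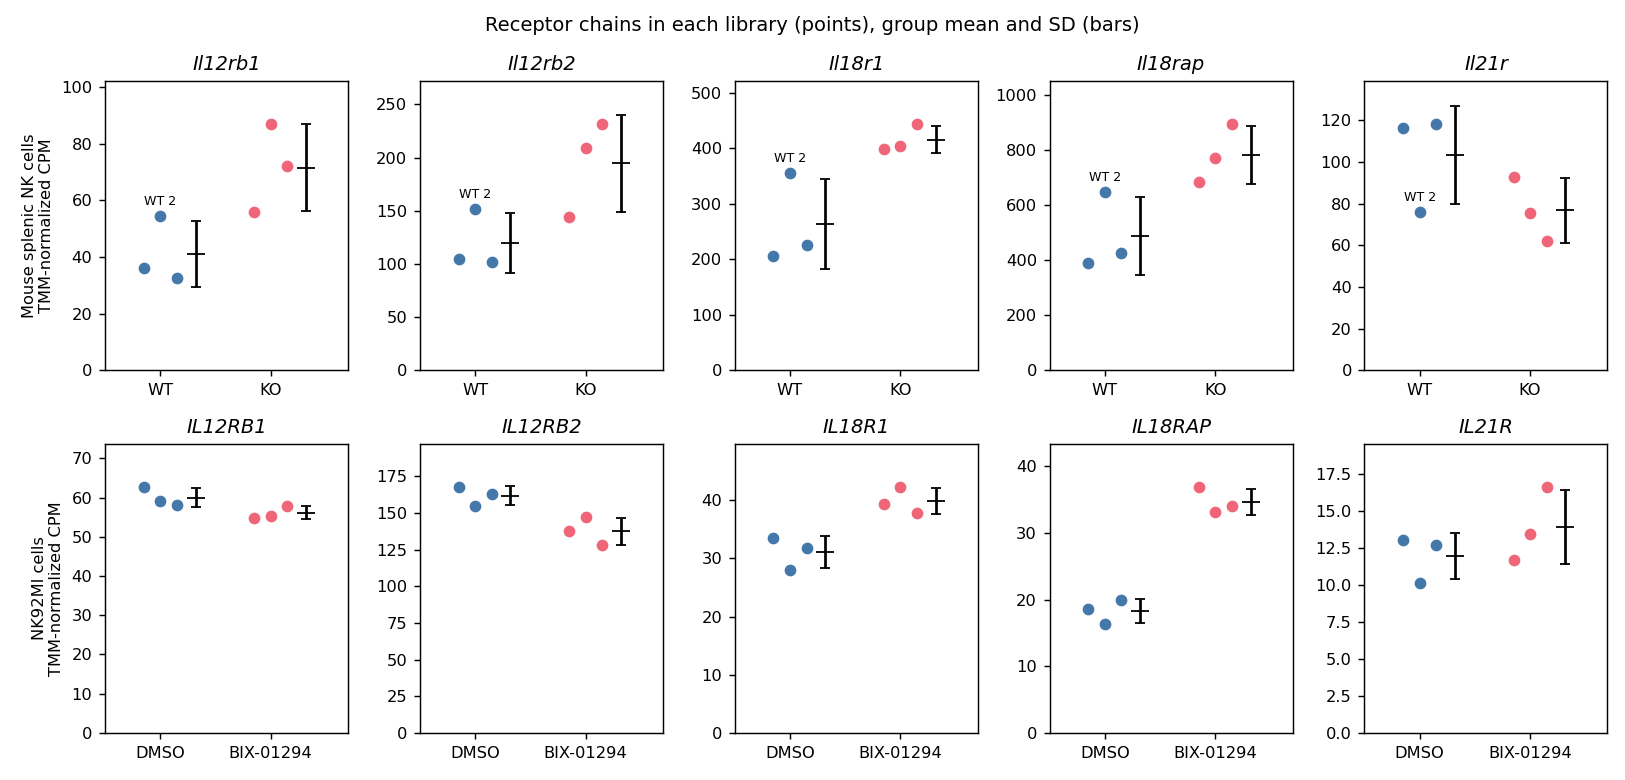
TMM-normalized CPM of each receptor chain in each library (points, in order of library number within a group), with the group mean and SD (bars), in mouse WT and KO NK cells (top) and in NK92MI cells with DMSO or BIX-01294 (bottom). WT replicate 2 is the highest WT library for the 4 IL-12 and IL-18 receptor chains and the lowest for Il21r, and IL18RAP of NK92MI lies between 16.4 and 19.9 CPM with DMSO and between 33.1 and 36.9 CPM with BIX-01294.

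The calls of the mouse chains depended on the libraries included. With WT replicate 2 left out, all 5 passed edgeR's test, with log2 fold changes of 1.06 for Il12rb1 (adjusted p = 0.00703), 0.91 for Il12rb2 (adjusted p = 0.0139), 0.94 for Il18r1 (adjusted p = 0.00228), 0.95 for Il18rap (adjusted p = 0.00424) and -0.61 for Il21r (adjusted p = 0.0287). Without it, edgeR called 10.7% of all genes as higher and 26.3% in either direction. Without KO replicate 1, Il12rb1 and Il12rb2 passed as higher, where 5.17% of all genes did. Each of the other libraries left out gave 0 calls among the 5, and between 0 and 0.743% of all genes called.

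The receptor chains were also set against the NK cell markers of the same library. These markers include Tbx21, Il2rb and Prf1, for which the paper reports higher mRNA in KO NK cells by RT-qPCR. Whether the marker sum responds to the knockout itself was not tested. Per 1000 counts of the 12 markers, Il18rap was at 62.2, 64.4 and 66.6 counts in WT and at 60.2, 58.9 and 69.5 counts in KO replicates 1 to 3. Il18r1 was at 33.0, 35.4 and 35.4 counts in WT and at 35.0, 30.8 and 34.4 counts in KO. On this scale the libraries of both groups were mixed, WT replicate 2 included. Il12rb1 had a mean of 5.42 ± 0.353 counts in WT and 5.71 ± 0.858 counts in KO, and Il12rb2 had 15.9 ± 0.849 and 15.5 ± 2.7 counts (SD, n = 3). The exact two-sided permutation p was between 0.5 and 0.8 for these 4 chains, where 0.1 is the smallest that 3 against 3 libraries allow. Il21r was at 18.6, 7.56 and 18.5 counts in WT and at 8.16, 5.76 and 4.81 counts in KO replicates 1 to 3, with WT replicate 2 again within the range of the KO libraries (exact permutation p = 0.2).

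In edgeR the same scaling to the NK markers lowered the median of all tested genes to a log2 fold change of -0.77. It reversed the sign of Il12rb2 to -0.04, of Il18r1 to -0.05 and of Il18rap to -0.04, left Il12rb1 at 0.08, and placed Il21r at -1.25 (adjusted p = 0.00621), where 64.8% of all genes were called lower and 0.311% higher. Relative to that median, the 5 chains were at 0.84 (Il12rb1), 0.73 (Il12rb2), 0.72 (Il18r1), 0.73 (Il18rap) and -0.48 (Il21r). Scaling moves all genes of a library together, so these differences from the median return near the TMM values by construction. The part of the NK cell share, and of the other cells whose markers were lower in KO, in the values of the 5 chains was not tested.

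**Figure D2:**
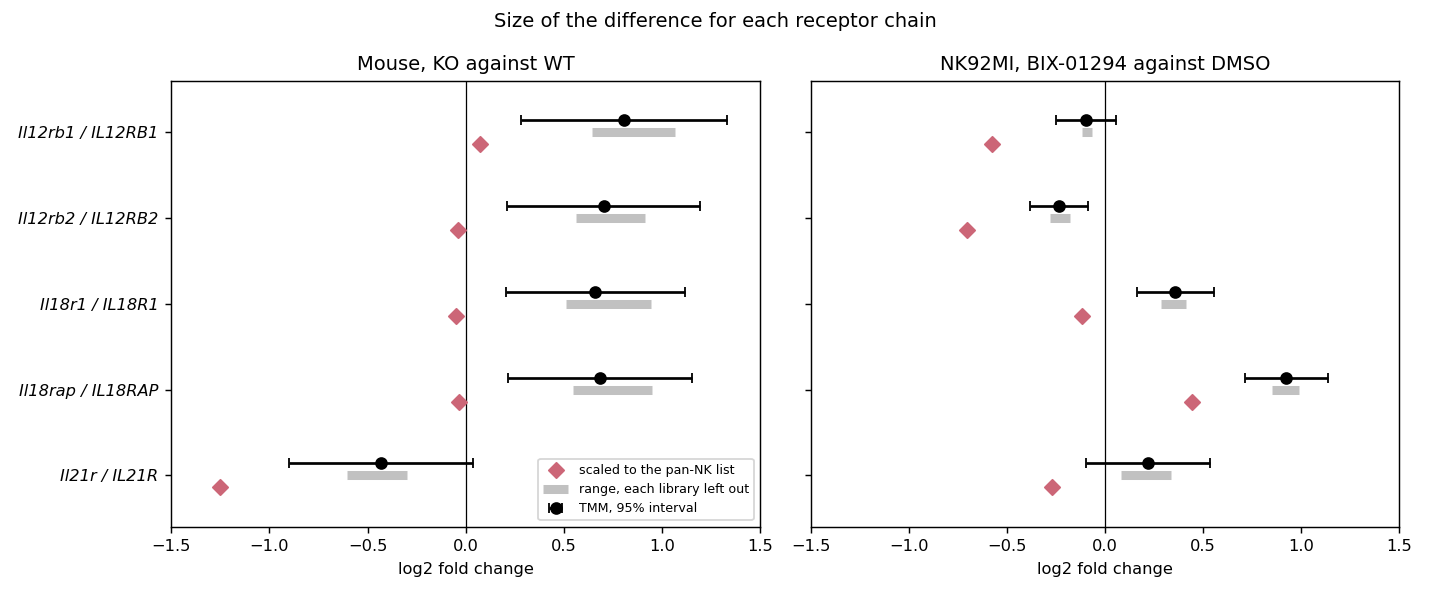
Log2 fold change of each receptor chain in mouse (KO against WT) and NK92MI cells (BIX-01294 against DMSO), with TMM normalization and its 95% interval (circles), scaled to the pan-NK marker list (diamonds), and the range with each library left out (grey bars). In mouse the 4 chains at 0.66 to 0.81 moved to between -0.05 and 0.08 when scaled to the markers, and in NK92MI cells IL18RAP stayed above 0 on both scales.

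The 2 chains of a receptor can be compared within a library, where the scaling between libraries has no part. Per kb of exon, the ratio of Il18rap to Il18r1 was 1.34, 1.30 and 1.34 in WT and 1.23, 1.36 and 1.44 in KO replicates 1 to 3, a log2 difference of 0.013 (exact two-sided permutation p = 0.8). The ratio of Il12rb2 to Il12rb1 lay between 3.02 and 3.40 in WT and between 2.61 and 3.47 in KO libraries, a log2 difference of -0.12 (exact permutation p = 0.5). Both ranges of the KO libraries spanned those of the WT libraries. The ratio of Il21r to Il2rg was 0.271, 0.144 and 0.290 in WT and 0.150, 0.111 and 0.105 in KO, a log2 difference of -0.90 (exact permutation p = 0.2), and WT replicate 2 lay within the KO range. Il2rg itself rose from 326 ± 46.0 to 452 ± 32.8 CPM (log2 fold change 0.47, adjusted p = 0.0472).

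Per kb of exon in WT cells, the chains were ordered Il18rap (72.3 ± 20.8 CPM per kb), Il18r1 (54.6 ± 16.8), Il12rb2 (31.5 ± 7.37), Il21r (31.1 ± 7.12) and Il12rb1 (9.99 ± 2.86). The ranges of Il18rap and Il18r1 overlapped, and so did those of Il12rb2 and Il21r. In KO cells the order was the same. There Il18rap was at 101 to 132, Il18r1 at 82.7 to 91.9, Il12rb2 at 37.9 to 60.9, Il21r at 18.6 to 27.9 and Il12rb1 at 13.6 to 21.2 CPM per kb. Il12rb2 did not overlap with Il21r, whereas Il21r and Il12rb1 did overlap. These levels per length use all annotated exons of a gene and would shift with another annotation.

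In NK92MI cells the question was whether BIX-01294 changes the same receptors. The targeted enzyme's own gene EHMT2 fell from 57.6 ± 3.65 to 38.5 ± 2.38 CPM (log2 fold change -0.58, adjusted p = 0.000101). Both IL-18 receptor chains rose, IL18RAP by 1.90-fold and IL18R1 by 1.28-fold, and IL12RB2 fell to 0.85 of its DMSO level. IL12RB1 and IL21R did not pass the test. Of all genes tested, 36.9% were called, 18.4% as higher and 18.4% as lower, and 49% had a log2 fold change above 0, as 3 of the 5 chains had. At an unadjusted p of 0.05 the same 3 chains passed, against 46.1% of all genes.

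Promoters are shown for their sequence context, since EHMT2 acts on chromatin. IL12RB1 and IL21R had no window without annotated exon and are not shown. The 3 genes that had one are also the 3 genes called. The windows are the 250 bases before a transcript start in RefSeq (GRCh38.p14), all on the plus strand. For IL18R1 this is the main start. For IL12RB2 and IL18RAP it is an alternative start 509 and 4511 bases away from the main one. Capitals mark matches, on either strand, to AGGAAG (an ETS-type motif), TGTGGT (a RUNX-type motif) or TCACAC (a T-box-type motif).
IL18R1, chr2:102355546-102355795: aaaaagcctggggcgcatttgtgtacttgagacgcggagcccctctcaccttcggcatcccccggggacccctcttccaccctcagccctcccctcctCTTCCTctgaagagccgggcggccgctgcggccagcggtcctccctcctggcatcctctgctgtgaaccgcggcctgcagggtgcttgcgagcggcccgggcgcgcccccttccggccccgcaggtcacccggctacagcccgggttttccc
IL18RAP, chr2:102418399-102418648: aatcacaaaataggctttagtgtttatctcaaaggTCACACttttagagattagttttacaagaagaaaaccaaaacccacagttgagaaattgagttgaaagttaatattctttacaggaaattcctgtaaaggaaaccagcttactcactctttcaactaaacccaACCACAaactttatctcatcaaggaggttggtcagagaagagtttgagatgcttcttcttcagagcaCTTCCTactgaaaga
IL12RB2, chr1:67307114-67307363: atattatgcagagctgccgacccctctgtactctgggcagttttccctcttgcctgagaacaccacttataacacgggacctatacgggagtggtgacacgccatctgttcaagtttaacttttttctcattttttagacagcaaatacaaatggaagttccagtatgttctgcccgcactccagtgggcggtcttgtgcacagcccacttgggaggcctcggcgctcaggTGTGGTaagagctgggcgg

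The neighbours IL18R1 and IL18RAP differed in base composition at these windows. The IL18R1 window held 21 CG dinucleotides and 70.4% G and C, the IL18RAP window 0 CG dinucleotides and 35.6% G and C, and the IL12RB2 window 9 and 51.6%. Among 35116 promoter windows of the same length the median was 11 CG dinucleotides, and 93.9% held at least 1. AGGAAG occurred in 28.7% of those windows, TGTGGT in 11% and TCACAC in 9.9%, and the STAT-type motif TTCNNNGAA, which none of the 3 windows held, in 6.57%. These matches are a description of the letters.

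IL18RAP had 320, 280 and 336 raw counts in the DMSO libraries and 606, 564 and 577 with BIX-01294. This corresponded to 18.6, 16.4 and 19.9 CPM with DMSO and 36.9, 33.1 and 34.0 CPM with BIX-01294. All treated libraries were far above all DMSO libraries. Its log2 fold change was 0.92 (SE 0.0990, 95% interval 0.71 to 1.14, adjusted p = 1.05e-05), which ranked 285 by p among the genes tested. With each library left out it passed the test, at 0.85 to 0.99.

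IL18R1 was at 33.5, 28.0 and 31.7 CPM with DMSO and at 39.4, 42.3 and 37.9 CPM with BIX-01294. The groups were separate, by less than for IL18RAP. The log2 fold change was 0.36 (SE 0.0911, 95% interval 0.16 to 0.55, adjusted p = 0.00722). It lay below the fold threshold of 0.5 that the study used with an adjusted p of 0.01. Of all genes, 11.7% passed both thresholds, and of the 5 chains IL18RAP did.

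IL12RB2 was at 168, 155 and 163 CPM with DMSO and at 137, 147 and 128 CPM with BIX-01294. All treated libraries lay under the DMSO libraries. This gave a log2 fold change of -0.23 (SE 0.0679, 95% interval -0.38 to -0.09, adjusted p = 0.0148). The call was lost without BIX-01294 replicate 1 (-0.23, adjusted p = 0.0702) and without the DMSO library CON-1 (-0.21, adjusted p = 0.0763) or CON-3 (-0.23, adjusted p = 0.0561).

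IL12RB1 was at 62.7, 59.0 and 58.1 CPM with DMSO and at 54.9, 55.4 and 58.0 CPM with BIX-01294. The groups met at 58 CPM without overlapping. A log2 fold change of -0.10 did not pass the test (SE 0.0709, 95% interval -0.25 to 0.06, adjusted p = 0.318). Altogether 2 chains were higher and 2 lower without overlap, where 24.1% and 23.9% of all genes tested were, in sum 47.9%.

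IL21R had the lowest level per kb of exon, with 174 to 282 raw counts in a library. It was at 13.0, 10.2 and 12.7 CPM with DMSO and at 11.7, 13.4 and 16.6 CPM with BIX-01294, and the groups overlapped. Its log2 fold change of 0.22 did not pass the test (SE 0.146, 95% interval -0.09 to 0.53, adjusted p = 0.264).

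The balance of the IL-18 receptor chains differed with treatment. Per kb of exon, the ratio of IL18RAP to IL18R1 was 0.841, 0.885 and 0.949 with DMSO and 1.42, 1.19 and 1.36 with BIX-01294. Per length IL18RAP was under IL18R1 in every DMSO library and above it in every treated library. This crossing depends on the exon lengths of 2966 and 4500 bases, since in counts IL18RAP was under IL18R1 in all 6 libraries, at ratios of 0.555 to 0.626 with DMSO and 0.783 to 0.935 with BIX-01294. The log2 difference was 0.57, with an exact two-sided permutation p of 0.1, the smallest that 3 against 3 libraries allow, and it lay between 0.52 and 0.64 with each library left out. The ratio of IL12RB2 to IL12RB1 lay between 1.504 and 1.61 with DMSO and between 1.27 and 1.52 with BIX-01294 (log2 difference -0.14, exact permutation p = 0.2). The ratio of IL21R to IL2RG was 0.208 to 0.285 with DMSO and 0.140 to 0.222 with BIX-01294 (log2 difference -0.42, exact permutation p = 0.2). In both, the ranges overlapped. The permutation p-values of the 6 ratios in the 2 species could not pass 0.05 in this design, with or without adjustment.

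**Figure D3:**
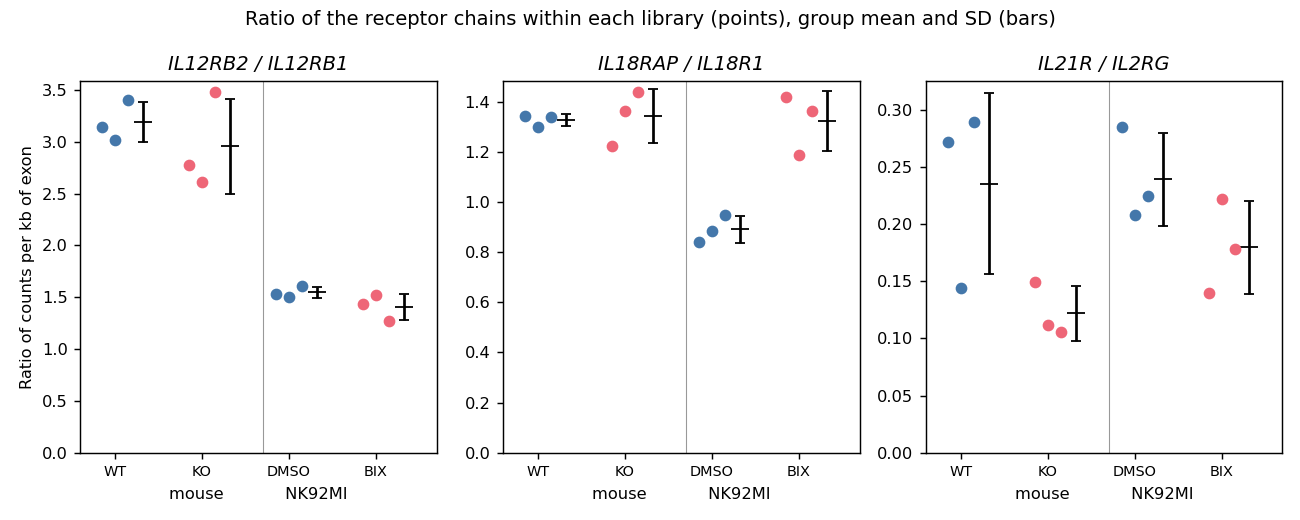
Ratio of counts per kb of exon between the chains of each receptor in each library (points), with the group mean and SD (bars), for mouse WT and KO NK cells and for NK92MI cells with DMSO or BIX-01294. The IL18RAP to IL18R1 ratio of NK92MI cells lies between 0.841 and 0.949 with DMSO and between 1.19 and 1.42 with BIX-01294, and the mouse libraries of both genotypes lie between 1.23 and 1.44.

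Per kb of exon with DMSO, IL12RB2 was highest (21.6 ± 0.846 CPM per kb), followed by IL12RB1 (13.97 ± 0.562), IL18R1 (6.91 ± 0.624), IL18RAP (6.16 ± 0.599) and IL21R (2.19 ± 0.287). The ranges of IL18R1 and IL18RAP overlapped and the others were separate. With BIX-01294, IL18RAP stood at 11.7 ± 0.657 CPM per kb, above IL18R1 at 8.86 ± 0.498 and under IL12RB1 at 13.1 ± 0.384, with no overlap between these 3. IL12RB2 stayed first at 18.4 ± 1.24 and IL21R last at 2.55 ± 0.460 CPM per kb. In the mouse libraries the IL-18 receptor chains held the first places and Il12rb1 the last.

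Of the 12 NK cell markers, 10 could be tested in NK92MI cells, and KLRB1 and TYROBP were below the filter. Of these 10, 4 were called higher and 4 lower, where 18.4% of all genes were called in each direction. The summed level of the 12 markers was 4564 to 4888 CPM with DMSO and 5806 to 7223 CPM with BIX-01294. The granzyme GZMA led it at 1722 ± 34.9 and 3245 ± 401 CPM. Scaling to this sum lowered the median of all genes to -0.48. It turned IL18R1 to -0.12 and IL21R to -0.27, neither past the test, and placed IL12RB1 at -0.57 (adjusted p = 0.000727) and IL12RB2 at -0.70 (adjusted p = 0.000704). IL18RAP stayed higher at 0.44 (adjusted p = 0.00967). On this scale 61.8% of all genes were called lower and 2.74% higher. Relative to the median of all genes, the chains were at -0.09 (IL12RB1), -0.22 (IL12RB2), 0.37 (IL18R1), 0.93 (IL18RAP) and 0.22 (IL21R). These are again near the TMM values by construction. The part of the marker genes in these values was not tested.

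The IL-18 receptor genes lie side by side in the IL-1 receptor cluster, on chromosome 1 in mouse (Il18r1 at 40465552 to 40500854 and Il18rap at 40515362 to 40551705, plus strand, GRCm38) and on chromosome 2 in human (IL18R1 at 102311529 to 102398777 and IL18RAP at 102418689 to 102452565, plus strand, GRCh38). Il12rb1 is on mouse chromosome 8 at 70808449 to 70821424, Il12rb2 on chromosome 6 at 67291318 to 67376188 and Il21r on chromosome 7 at 125603429 to 125633570. IL12RB1 is on human chromosome 19 at 18058995 to 18098944, IL12RB2 on chromosome 1 at 67307364 to 67398724 and IL21R on chromosome 16 at 27402174 to 27452042. Within the mouse cluster, Il1rl1, the receptor for IL-33, ends 0.1 kb before Il18r1 and was at 7.30 ± 0.854 CPM in WT and 4.81 ± 0.391 CPM in KO cells (log2 fold change -0.60, adjusted p = 0.052). Il1r2, a decoy receptor for IL-1, fell by 2.86 on the log2 scale (adjusted p = 0.0387), from 8.03 ± 6.04 to 1.11 ± 0.693 CPM. The other cluster genes tested, Il1r1, Il1rl2 and Slc9a2, did not pass the test. In NK92MI cells the only cluster gene tested besides the IL-18 receptor chains was IL1R1, the signalling receptor for IL-1, which fell by 0.32 on the log2 scale (adjusted p = 0.0491). The 2 IL-18 receptor genes thus had the highest estimated fold changes of the cluster in both comparisons, among 7 mouse and 3 human genes tested, although the 95% interval of Il1r1 reached 1.09. MAP4K4, listed among the genes around these loci, is not counted in the cluster here. It rose by 0.35 in NK92MI cells (adjusted p = 0.00123), near IL18R1 at 0.36. In mouse Map4k4 was at 0.11 (adjusted p = 0.471).

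**Figure D4:**
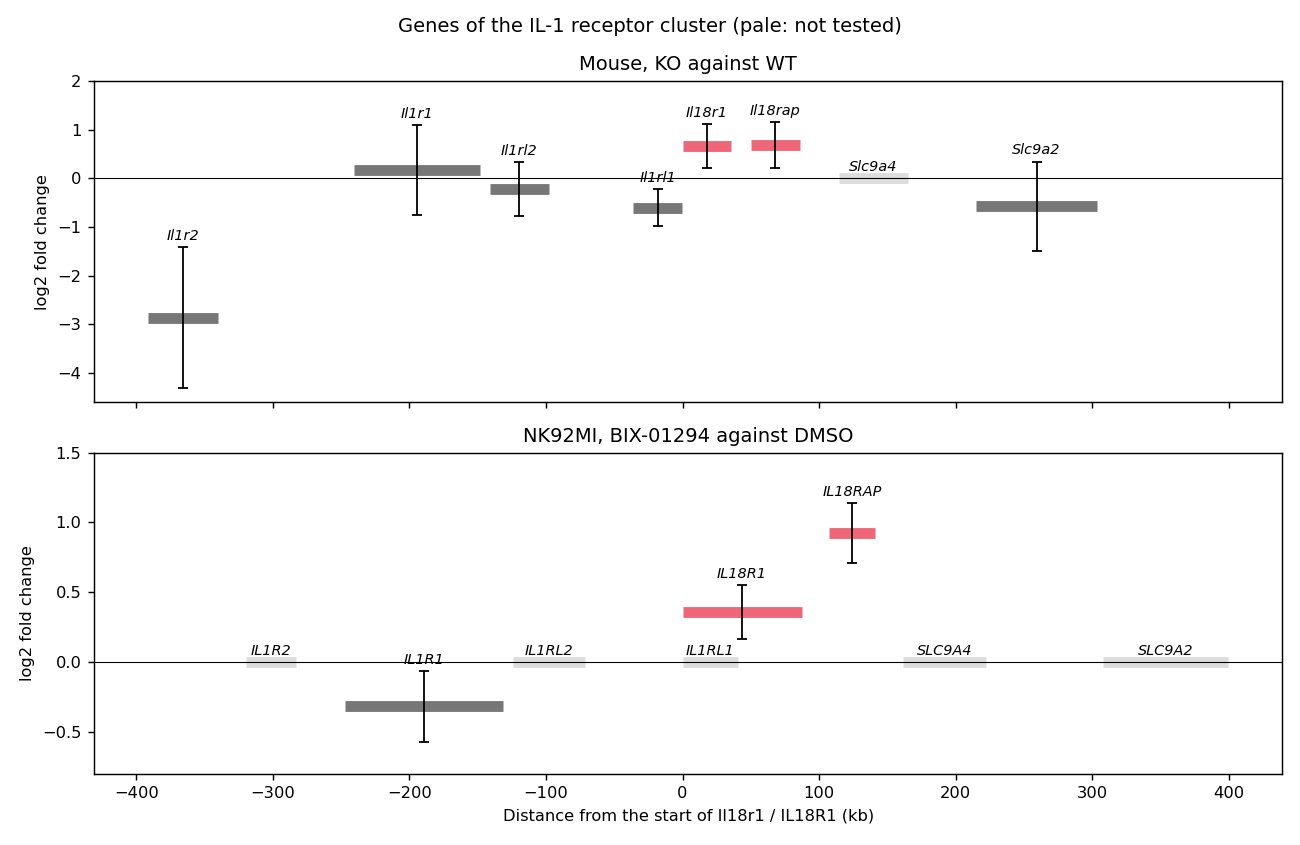
Genes of the IL-1 receptor cluster by distance in kb from the start of Il18r1 or IL18R1 (x axis) and log2 fold change (y axis) in mouse KO against WT (top) and NK92MI BIX-01294 against DMSO (bottom), with bars for gene extents, vertical lines for 95% intervals, and pale bars at 0 for genes that were not tested. Il18r1 at 0.66 and Il18rap at 0.68 stand next to Il1rl1 at -0.60, and IL18RAP at 0.92 stands above IL18R1 at 0.36.

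Near the other chains, Il23r lies beside Il12rb2 and encodes the partner of Il12rb1 in the IL-23 receptor. It was at 0.549 CPM in WT and 0.924 CPM in KO cells (adjusted p = 0.16). The tested neighbours of Il12rb1 and Il21r, the nearest 2 genes on each side, did not pass the test, nor did Serbp1 and Gadd45a beside Il12rb2. In NK92MI cells SERBP1 beside IL12RB2 fell by 0.24 (adjusted p = 0.00423) and GADD45A rose by 0.71 (adjusted p = 0.00877). Beside IL21R, IL4R rose by 0.35 (adjusted p = 0.00193) and GTF3C1 fell by 0.20 (adjusted p = 0.0266). MAST3, which overlaps IL12RB1 on the opposite strand, fell by 0.67 (adjusted p = 7.96e-05). Il12rb2 likewise overlaps Serbp1 and IL21R overlaps IL21R-AS1 on the opposite strand. The strand setting of the counting is not given in the sources used here, so reads of these partners may not have been told apart. On the same strand IL18R1 shares part of its extent with IL1RL1, and IL18RAP with the miRNA gene MIR4772 and 2 long non-coding RNA genes, so their counts carry the same uncertainty.

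Among the ligands in mouse NK cells, 5 were tested and all were lower in KO, with 1 past the test. Of all genes tested, 7.43% were called lower. Ebi3, the shared subunit of IL-27 and IL-35, fell from 37.7 ± 6.46 to 21.2 ± 5.30 CPM (log2 fold change -0.83, adjusted p = 0.0437). Il18 was at 38.0 ± 21.5 CPM in WT and 12.1 ± 5.02 CPM in KO cells (adjusted p = 0.0571) and Il12a at 2.96 ± 1.10 and 0.806 ± 0.552 CPM (adjusted p = 0.0528). The macrophage and dendritic cell markers were lower in the same libraries. In NK92MI cells 3 ligand genes were tested. IL23A, a subunit of IL-23, rose from 1.23 ± 0.436 to 8.08 ± 1.07 CPM (log2 fold change 2.71, adjusted p = 1.79e-06). EBI3 had 0 counts in the DMSO libraries and 44 counts in all with BIX-01294, at least 14.8-fold higher when the DMSO group is set at a floor of 3 counts.

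Of the IL-12 signalling genes in mouse, Jak2, Tyk2 and Stat4, 0 of 3 passed edgeR's test. The kinase Tyk2 was at 288 ± 33.7 CPM in WT and 396 ± 47.2 CPM in KO cells (adjusted p = 0.0522), and Stat4 at 113 ± 34.3 and 173 ± 22.9 CPM (adjusted p = 0.0798). DESeq2 called 2 of the 3 as higher and 1 as lower, where it called 8.33% and 15.1% of all genes. At an unadjusted p of 0.05 all 3 passed, against 35.8% of all genes. Of the 9 IL-18 signalling genes 0 passed in mouse by edgeR or DESeq2, with 0 at an unadjusted p of 0.05, and their median log2 fold change was 0.09, against 0.01 over all genes. Of the 7 IL-21 signalling genes, Il2rg and the kinase Jak3 rose, the latter from 209 ± 7.50 to 344 ± 55.8 CPM (log2 fold change 0.72, adjusted p = 0.0279). Stat3, Stat5a and Stat5b had log2 fold changes between -0.08 and 0.04.

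In NK92MI cells 0 of the 3 IL-12 signalling genes passed edgeR's test, also at an unadjusted p of 0.05 and by DESeq2, with log2 fold changes between -0.06 and 0.16. Of 8 IL-18 signalling genes tested, 4 rose and 1 fell, where 18.4% of all genes were called in each direction. The adaptor MYD88 rose from 98.1 ± 0.461 to 115 ± 4.90 CPM (log2 fold change 0.23, adjusted p = 0.0103). TAB2, which links TRAF6 to the kinase MAP3K7, rose by 0.44 (adjusted p = 0.000127), and TAB3 and TRAF6 by 0.37 and 0.30. The kinase IRAK1 fell by 0.33 (adjusted p = 0.00142). Of the 7 IL-21 signalling genes 3 rose, among them IL2RG by 0.65 (adjusted p = 0.00217) and STAT3 by 0.37 (adjusted p = 0.000427). JAK1 fell by 0.27 (adjusted p = 0.00315) and STAT5B by 0.57 (adjusted p = 9.62e-06). On the scale of the NK marker sum, where 61.8% of all genes were called lower and 2.74% higher, 0 genes of the IL-18 and IL-21 signalling lists were called higher, 4 of each were called lower, and all 3 IL-12 signalling genes were called lower.

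Among 10 inhibitors of these pathways in mouse, 2 rose and 2 fell, where 4.44% and 7.43% of all genes tested did. The feedback inhibitors of JAK signalling Cish and Socs1 rose by 1.05 (adjusted p = 0.0181) and 0.95 (adjusted p = 0.0269). Il18bp, the secreted protein that captures IL-18, fell by 1.31 on the log2 scale (SE 0.312, adjusted p = 0.0433), and Irak3, an inhibitory member of the IRAK family, fell by 0.82 (adjusted p = 0.0413). Macrophage, neutrophil and dendritic cell markers were lower in the same KO libraries, and the part of such cells in these falls was not tested. In NK92MI cells 2 of 8 rose and 2 fell, where 18.4% of all genes were called in each direction. TNFAIP3, which restrains NF-kB signalling, rose from 41.0 ± 1.11 to 123 ± 1.11 CPM (log2 fold change 1.59, adjusted p = 3.37e-09), and TOLLIP rose by 0.59 (adjusted p = 0.000122). CISH fell by 0.25 (adjusted p = 0.00791) and SIGIRR, an inhibitory receptor of the IL-1 family, fell by 0.32 (adjusted p = 0.0258). IL18BP was at 10.1 ± 0.451 and 9.77 ± 1.92 CPM (adjusted p = 0.837).

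Of 16 related receptor chains in mouse, 2 rose and 3 fell, where 4.44% and 7.43% of all genes tested did. The IL-27 receptor chain Il27ra rose by 0.64 (adjusted p = 0.0279), beside Il2rg, and Il1r2, Il6st and Il6ra fell, the last 2, chains of the IL-6 receptor, by 0.73 (adjusted p = 0.0387) and 0.75 (adjusted p = 0.0457). Here too the part of the other cells, whose markers were lower in KO, was not tested. In NK92MI cells all 9 tested related chains were called, 7 as higher, where 36.9% of all genes were called and 18.4% as higher. IL2RA, the high-affinity IL-2 receptor chain, rose by 0.89 (adjusted p = 3.11e-07), IL6ST by 0.73 (adjusted p = 0.000199), IL27RA by 0.39 (adjusted p = 0.000608) and IL4R by 0.35. IL2RB and IL1R1 fell by 0.16 (adjusted p = 0.0457) and 0.32, but with DESeq2, its size factors in edgeR or no filter, 0 of the 9 were called lower.

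The last list held genes known to respond to IL-12, IL-18 or IL-21. In mouse 6 of 25 tested rose and 0 fell by edgeR's test, against 4.44% and 7.43% of all genes. The median log2 fold change was 0.21. Ifng, which encodes interferon gamma, rose from 19.2 ± 5.41 to 40.2 ± 2.45 CPM (log2 fold change 1.07, adjusted p = 0.0279), Socs1 by 0.95, Irf1 by 0.53 (adjusted p = 0.0324) and the chemokine Ccl4 by 0.60 (adjusted p = 0.0364). At an unadjusted p of 0.05, 11 were higher and 3 lower, against 35.8% of all genes in either direction. DESeq2 called 2 as lower, where it called 15.1% of all genes lower. One of the other genes called, Tbx21, also belongs to the NK marker list, as does Prf1 among those that were not. In NK92MI cells 17 of 23 rose and 2 fell, with a median of 0.56, where 18.4% of all genes were called in each direction. IFNG rose from 31.5 ± 3.32 to 205 ± 48.7 CPM (log2 fold change 2.71, adjusted p = 1.90e-08), IL2RA by 0.89, CCL4 by 0.93 (adjusted p = 5.73e-06) and NFKBIZ by 0.70 (adjusted p = 7.17e-06). TBX21 fell by 0.46 (adjusted p = 7.61e-05) and IRF8 by 0.57 (adjusted p = 0.000148).

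The mouse list calls, like those over all genes, were mostly lost when any of 4 libraries was left out. Without KO replicate 2 or KO replicate 3, edgeR called 0 of all genes, Ehmt2 included. Without WT replicate 3 or WT replicate 1 it called 0.105% and 0.743% of all genes, and of the signalling, inhibitor, related receptor and response lists 0 genes and 1 inhibitor. Without WT replicate 2, 10 response genes were called higher, where 10.7% of all genes were. Scaled to the NK marker sum, 0 of the 25 mouse response genes were called higher and 11 lower, where 0.311% and 64.8% of all genes were, and 8 of the 23 human ones were called higher, where 2.74% of all genes were. The part of the NK cell share in the list counts was not tested.

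**Figure D5:**
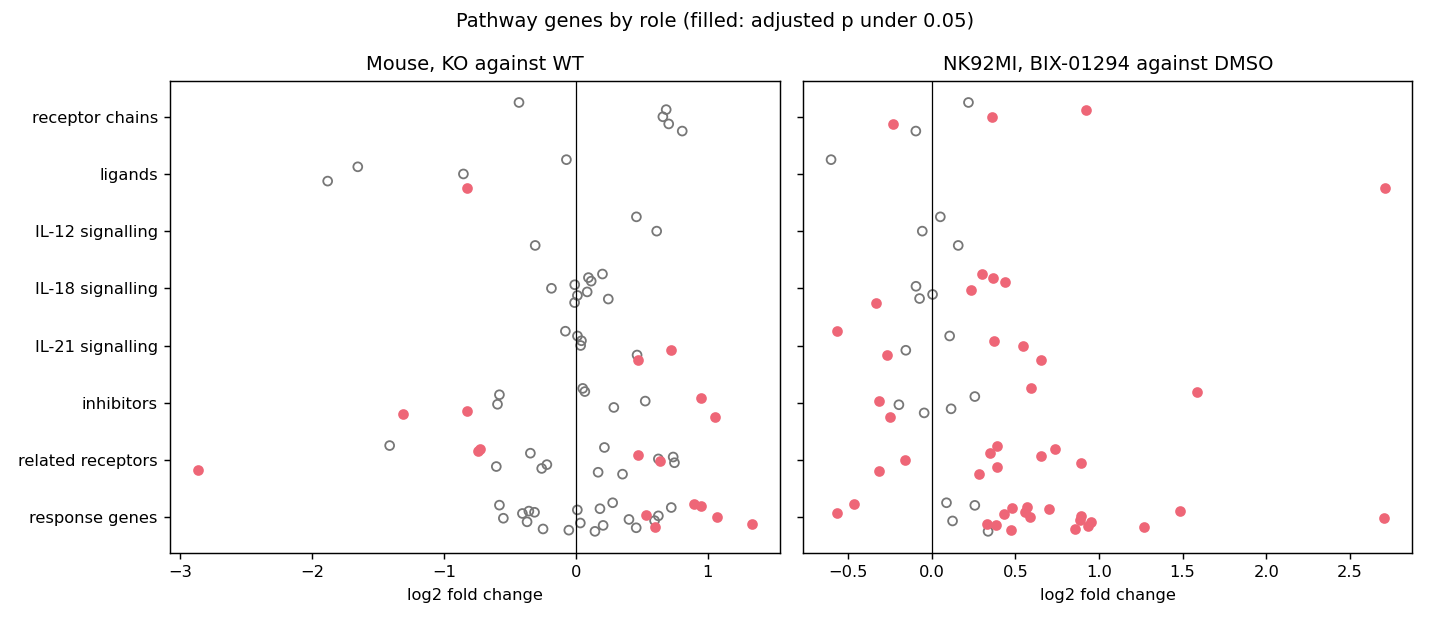
Log2 fold change of each tested gene of the receptor, ligand, signalling, inhibitor, related receptor and response lists in mouse KO against WT and NK92MI BIX-01294 against DMSO, with filled points for an adjusted p under 0.05. Among response genes 6 of 25 are filled in mouse and 19 of 23 in NK92MI cells, and EBI3, with 0 counts under DMSO, is not drawn.

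The genes whose log2 CPM followed each chain most closely over the 6 libraries of a species were named as a description, since the 6 libraries share the difference between groups. Among 9131 mouse genes, they were Klri2, Gcfc2 and Ddx47 for Il18r1, Fbxo28, Tecpr1 and Pogk for Il18rap, Fam102a, Suds3 and Pigs for Il12rb1, and Elk4, Mrs2 and Rasa1 for Il12rb2, with Pearson's r between 0.995 and 0.998. For Il21r they were Sap30, Pqlc2 and Nfkb2 (r from 0.994 to 0.997). Between 411 and 530 genes exceeded an r of 0.95 with each IL-12 or IL-18 receptor chain, and 78 with Il21r. Among 8554 genes in NK92MI cells, RNF149, RAD51AP1 and YWHAZ followed IL18RAP, GINS1, ZBTB33 and DCUN1D1 followed IL18R1, and IPO8, LRRCC1 and GEN1 followed IL12RB2 (r from 0.995 to 0.999). ZNF766, ST3GAL5 and PSIP1 for IL12RB1 reached 0.972 to 0.998, and PSME3IP1, TAFAZZIN and APPL2 for IL21R 0.949 to 0.989. Between the chains themselves, r was 0.99 for Il18r1 with Il18rap and 0.96 for Il12rb1 with Il12rb2 in mouse, and 0.92 for IL18R1 with IL18RAP and 0.62 for IL12RB1 with IL12RB2 in NK92MI cells.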

How the data were processed

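RNA-seq was performed on poly(A) RNA of 3 WT and 3 KO mouse libraries and 3 DMSO and 3 BIX-01294 NK92MI libraries. The authors deposited raw counts per gene symbol. The submitters' processing notes name fastp 0.23.4, STAR 2.7.11b and HTSeq 2.0.3. The annotation release and strand setting of the counting are not given in the sources used here. The DMSO columns could be mapped to their group but not to a numbered sample. The receptor genes and gene lists were chosen with earlier results of these data known.

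In R 4.3.3, counts were normalized with TMM and filtered with filterByExpr, and each species was fitted separately with edgeR 4.0.16 (quasi-likelihood test, Benjamini-Hochberg adjustment over all tested genes, called at an adjusted p under 0.05). The biological coefficient of variation was 18.2% in mouse and 7.55% in NK92MI libraries. The printed intervals reflect the spread between 3 libraries in each group, and a gene not called may still differ within its interval. Ratios were tested with an exact two-sided permutation test over libraries. Alternatives were DESeq2 1.42.0 (the study's tool), limma-voom 3.58.1, DESeq2 size factors, library totals, scaling to the summed counts of the pan-NK marker list, other filters, the study's thresholds, a replicate block and each library left out. The scripts were tested on simulated data. Gene positions and exon lengths were taken from GENCODE M21 (GRCm38) and 44 (GRCh38), which may not be the authors' release. Promoter sequences were taken from RefSeq, with windows free of annotated exon for human IL18R1, IL18RAP and IL12RB2 only.

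All 5 receptor genes were named in both species. From each list, called genes with the smallest p were named, at most 4 in each direction. For each receptor gene, the 3 genes with the highest Pearson correlation of log2 CPM among genes with a mean of at least 10 CPM were named, and the nearest 2 protein-coding genes on each side were examined. Counts per 1000 NK marker counts were computed after the data were seen. Same-numbered WT and KO libraries had correlations of their deviations of 0.354, 0.457 and -0.248, so the numbers were not taken to pair the libraries.
Genes named without a call were chosen after their values were seen. Some genes that these rules would name are not reported here.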

Additional observations from a re-analysis of the deposited data

How the results depend on the processing

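In mouse, the count of receptor chains called higher was 0 with TMM and edgeR, 1 without a filter, 4 with DESeq2 and 1 with limma-voom, and 0 to 4 with each library left out. The count called lower was 0, or 1 when scaled to the pan-NK list, and 0 to 1 with each library left out. Il12rb1 passed at 0.81 without a filter, 0.80 with DESeq2 and 0.84 with limma-voom, and DESeq2 also called Il12rb2 (0.69), Il18r1 (0.65) and Il18rap (0.67). Scaled to the pan-NK list, Il12rb2 (-0.039), Il18r1 (-0.050) and Il18rap (-0.035) reversed and Il21r passed at -1.25, where the median of all genes was -0.77 and 64.8% of genes were called lower. Relative to that median these 4 chains were at 0.73, 0.72, 0.73 and -0.48, near the TMM values by construction. With each library left out, the log2 fold changes ranged from 0.65 to 1.06 (Il12rb1), 0.56 to 0.91 (Il12rb2), 0.51 to 0.94 (Il18r1), 0.55 to 0.95 (Il18rap) and -0.61 to -0.30 (Il21r).

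In NK92MI cells, 1 chain was called higher and 2 lower when scaled to the pan-NK list, where IL18R1 (-0.12) and IL21R (-0.27) reversed and IL12RB1 passed at -0.57, where the median of all genes was -0.48 and 61.8% of genes were called lower. Relative to that median they were at 0.37, 0.22 and -0.09, near the TMM values by construction. With the study's thresholds 1 was called higher and 0 lower. With each library left out, 0 to 1 were called lower, and IL12RB2 ranged from -0.28 to -0.18. The cause of these differences was not tested beyond the scaling that defines each alternative.

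Mouse libraries shared replicate numbers but not every sample correlated best with its own number. With the replicate block, 4 chains were called higher, Il12rb1 (0.82), Il12rb2 (0.70), Il18r1 (0.70) and Il18rap (0.71), and the calls over all genes increased from 1565 to 3222. For the NK92MI libraries no paired analysis was possible because the DMSO columns carry no sample number.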
